A study of Mus musculus with 4 samples.

Results

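Matricellular proteins are secreted into the extracellular matrix but act mainly as signals to cells, through integrins and other surface receptors, rather than as load-bearing fibres. In the heart their genes are known to be active in development, to be quieter in the healthy adult, and to be induced again after injury, largely in fibroblasts and other non-muscle cells. Several of them are known targets of TGF-beta or of the YAP and TEAD transcription factors. The description above covers fibronectin, the product of Fn1, only in part, since cells assemble other matrix proteins on it. The 10 genes described here are Postn, Tnc, Tgfbi, Fn1, Thbs1, Thbs2, Cyr61, Ctgf, Sparc and Spp1. They were picked by name, through the RefSeq accession of each array probe, with earlier results of these data known, differences between the arrays included. The differences between arrays are therefore given as a description. Cyr61 and Ctgf are listed as Ccn1 and Ccn2 in the current gene table. Together they were read by 12 of the 39429 non-control probes of the array, 1 probe a gene except for Sparc and Tnc with 2 each. All 10 genes were well above background on all 4 arrays and all 10 passed the filter on dim probes, among 20921 features tested.

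Total RNA came from cardiomyocytes grown out of CGR8, a mouse embryonic stem cell line, and each sample was hybridised to a 1-colour Agilent array. The cells were transfected for 48 hours with the agent Pepmute, in low-glucose medium with 2% serum, with a scrambled small interfering RNA (siScr, 2 samples, numbered 1 and 2) or with one against Erbb4 (siErbB4, 2 samples, numbered 1 and 2). Erbb4 encodes a neuregulin receptor of the EGF receptor family. All samples come from 1 cell line, and the labels give no age of the cultures, no selection of muscle cells, not what the numbers 1 and 2 stand for, nor which of the stated incubation times a sample had.

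The arrays were alike in brightness, with a 75th percentile of the processed signal between 878 and 989, and no spot was saturated. Erbb4 itself had a processed signal of 9.02 and 11.9 on the siScr arrays and of 2.83 and 15.0 on the siErbB4 arrays, and only 1 of the 4 values was well above background, so the array does not check which samples carried the knockdown. Groups follow the titles and the transfection field. Other labels disagree: siErbB4 sample 2 has ErbB5 in its source name, and both siErbB4 descriptions read si-Scr. The 8 cardiomyocyte markers read were well above background on all 4 arrays, among them Myh6, Tnnt2 and Nkx2-5. So were the 5 stem cell markers read, and between 64.8 and 68.5% of the probes were so on an array. Signal above background thus does not check the cardiomyocyte label. All 4 arrays were on 1 slide, with the number 2 samples in positions 1 and 2 and the number 1 samples in positions 3 and 4, so slide position and sample number cannot be told apart. Nothing in the labels says that the samples came from separate cultures, so p-values and intervals measure the spread between these samples, and 2 arrays a group limit their precision.

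The stretch just before the transcription start was read for the members with an entry in the RefSeq promoter table (7 of 10, build GRCm38.p6; Fn1, Thbs1 and Ctgf have none). The 5 below are shown because they belong to the genes with the widest differences between the arrays, Tnc, Tgfbi and Postn, to Cyr61, a textbook TEAD target, and to Sparc, whose level hardly moved. Each is the 150 bases that end at the start site, 5′ to 3′ on the strand of the gene, and capitals mark matches to the motifs searched on both strands.
Tgfbi (chr13:56609436-56609585, + strand): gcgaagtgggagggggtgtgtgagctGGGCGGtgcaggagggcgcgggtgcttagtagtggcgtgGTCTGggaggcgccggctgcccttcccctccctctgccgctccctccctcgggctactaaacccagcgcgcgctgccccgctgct
Tnc (chr4:64047016-64047165, - strand): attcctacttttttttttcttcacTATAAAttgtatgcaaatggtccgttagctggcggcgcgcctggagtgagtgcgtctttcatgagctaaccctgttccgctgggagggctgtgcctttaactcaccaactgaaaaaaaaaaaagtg
Postn (chr3:54359117-54359266, + strand): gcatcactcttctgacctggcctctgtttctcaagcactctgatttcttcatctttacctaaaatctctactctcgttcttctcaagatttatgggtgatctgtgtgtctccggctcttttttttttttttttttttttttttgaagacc
Cyr61 (chr3:145649986-145650135, - strand): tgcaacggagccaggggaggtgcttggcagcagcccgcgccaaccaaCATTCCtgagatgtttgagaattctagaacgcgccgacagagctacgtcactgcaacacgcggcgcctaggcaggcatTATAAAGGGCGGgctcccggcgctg
Sparc (chr11:55420081-55420230, - strand): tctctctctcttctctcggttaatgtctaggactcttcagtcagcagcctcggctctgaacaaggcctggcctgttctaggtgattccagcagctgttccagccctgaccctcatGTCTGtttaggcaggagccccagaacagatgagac

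The motifs were the TEAD letters GGAATG, the AP-1 letters TGANTCA, the TATA letters TATAAA, the SP1 letters GGGCGG, the SMAD letters GTCTG and the CArG box of serum response factor. Over the 250 bases before the start, TEAD letters were found in 1 of the 7 members, Cyr61, against 12.6% of 32851 promoters. They begin 103 bases before the Cyr61 start, on the opposite strand, and TATA letters begin 25 bases before it, directly followed by SP1 letters. TATA letters were found in 4 of the 7 (Tnc, Spp1, Thbs2 and Cyr61) against 12.4% of promoters. Those of Tnc begin 126 bases before the start, those of Spp1 211 and those of Thbs2 126, the last on the opposite strand. SP1 letters were found in 3 of 7 against 32.7%, and SMAD letters in 5 of 7 against 42.2%. The AP-1 letters (6.75% of promoters) and the CArG box (1.47%) were in none of the 7. No motif was found in all 3 of the widest-ranging genes: Tnc held TATA and SP1 letters, Tgfbi SP1 and SMAD letters and Postn SMAD letters alone, 191 bases before the start and so outside the stretch shown.

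Between siErbB4 and siScr, 8 of the 10 genes differed by less than between the sample numbers, the exceptions being Thbs2 and Ctgf. With limma and the Benjamini-Hochberg adjustment over all features, 0 of the 10 passed at an adjusted p under 0.05, 0% of all features did, and 0 of the 10 had an unadjusted p under 0.05, against 376 of 20921 features (1.8%). The adjusted limma p was 1.00 for each of the 10, and 0.641 to 1.00 over the alternative settings, the lowest with the sample number as a block. The median log2 difference (siErbB4 minus siScr) was -0.11 over the members and -0.01 over all features. The mean was lower in siErbB4 for 8 of the 10 members, against 52.9% of all features. It was lower for 3 of the 10 without siScr 1 and for 2 without siErbB4 2, where the members' median became 0.46 and 0.24. Leaving out an array makes the sample numbers uneven between the groups, so the difference between the numbers enters these values. The siErbB4 arrays lay below both siScr arrays for 1 member, Thbs2 (15.9% of all features), and above both for 1 member, Ctgf (13.1% of all features). With 2 arrays a group, the smallest two-sided p of an exact permutation test is 0.333.

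Between the sample numbers the picture was another. In both transfection groups Tnc, Tgfbi and Postn were several-fold lower on the number 2 array than on the number 1 array, Fn1, Thbs1 and Cyr61 were lower by a smaller factor, and Sparc and Ctgf stayed within 0.32 on the log2 scale. Their median log2 difference (number 2 minus number 1) was -0.99 in siScr and -0.69 in siErbB4, against 0.04 and -0.01 over all features. Both number 2 arrays lay below both number 1 arrays for 7 of the 10 genes, against 26% of all features, and above for 0 (29.4% of all features). The difference was negative within both groups for the same 7 (33% of all features), and the mean difference was at or below -1 for 4, Postn, Tnc, Tgfbi and Fn1 (2.67% of all features). In the limma fit of number 2 against number 1, 5 of the 10 were among the 480 features called lower (2.29% of features), 0 were called higher (2.86%), and 5.16% of features were called in either direction. Since the genes were chosen with this difference known, the count supports nothing. The number of calls changed with single arrays: 1079 features and 5 members were called in all, 0 and 0 without siScr 1 (5313 features at an unadjusted p under 0.05), 0 and 0 without siScr 2 (2705 features), 68 and 1 without siErbB4 2 and 1552 and 5 without siErbB4 1. With each array left out in turn, the differences themselves moved little for some members, between -3.13 and -2.84 for Tnc and between -1.07 and -1.03 for Fn1. They moved more for Tgfbi (-2.88 to -2.13), Postn (-2.30 to -1.49) and Cyr61 (-1.08 to -0.52). The sign changed for Thbs2 (-0.54 to 0.51) and Ctgf (-0.06 to 0.16) and for no other member. In a bulk sample, fewer cells of a type and less RNA per cell cannot be told apart.

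**Figure D1:**
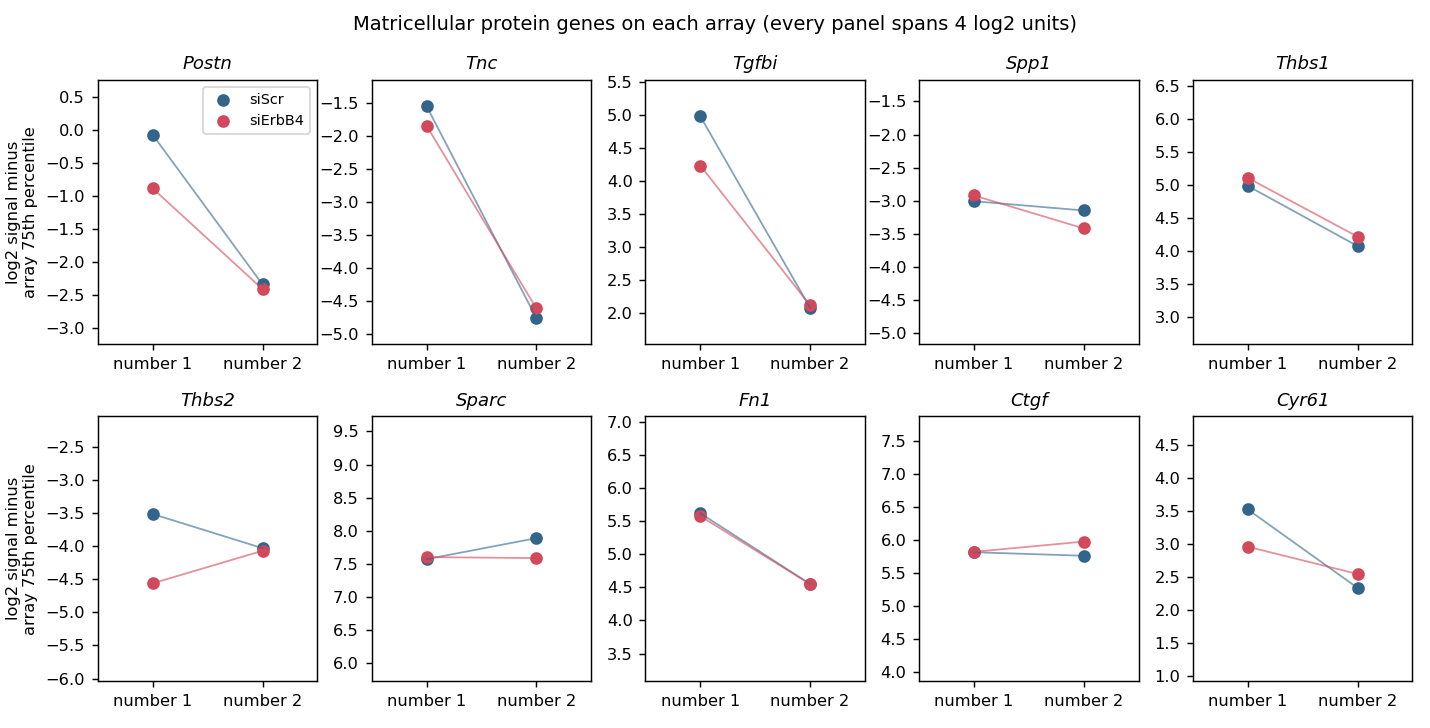
Level of each gene on each array, on the log2 scale after subtraction of the array's 75th percentile (vertical axis, 4 log2 units in every panel), for the samples numbered 1 and 2; blue points are siScr and red points siErbB4, and lines join the 2 arrays of a group. Tnc, Tgfbi and Postn fall steeply from number 1 to number 2 in both groups, while Sparc and Ctgf are nearly level.

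Tnc encodes tenascin-C, a large hexameric glycoprotein that loosens cell adhesion and appears in the heart in development and around injury. Its brighter probe had a processed signal of 339 on siScr 1, 32.6 on siScr 2, 263 on siErbB4 1 and 38.5 on siErbB4 2. The number 1 arrays were thus both high and the number 2 arrays both low, 9.23-fold apart in siScr and 6.78-fold in siErbB4, with the treatments interleaved. The second Tnc probe gave 114, 17.9, 73.9 and 19.7 in the same order, with log2 differences (number 2 minus number 1) of -2.50 in siScr and -1.90 in siErbB4 against -3.21 and -2.76 for the brighter probe. Both probes therefore split the arrays the same way. The size of the difference changed with the background correction: the mean log2 difference of the brighter probe was -2.98, and -1.50 with normexp and an offset of 50, and the cause was not tested. The siErbB4 minus siScr difference of Tnc was -0.08 (SE 1.49, 95% interval -4.19 to 4.04).

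Tgfbi and Postn are the 2 members of the fasciclin-domain family, secreted proteins that bind collagen and integrins, and both genes are known to be induced by TGF-beta. Tgfbi, which encodes the TGF-beta-induced protein, gave 31107 on siScr 1, 3709 on siScr 2, 17699 on siErbB4 1 and 4065 on siErbB4 2. After scaling it was 7.44-fold lower on the number 2 array in siScr and 4.33-fold lower in siErbB4. Postn, which encodes periostin, a marker of activated cardiac fibroblasts and of the cushions that form valves, gave 938, 174, 510 and 177 in the same order. After scaling it was 4.80-fold lower on the number 2 array in siScr and 2.87-fold lower in siErbB4. Both genes were nearly equal on the 2 number 2 arrays, and siScr 1 was their highest array. At number 1 the siErbB4 array lay below the siScr array by a log2 difference of -0.75 for Tgfbi and -0.81 for Postn, and at number 2 the differences were 0.04 and -0.07. Over both numbers the siErbB4 minus siScr difference was -0.35 for Tgfbi (SE 1.27, 95% interval -3.85 to 3.14) and -0.44 for Postn (SE 0.97, 95% interval -3.11 to 2.23). Without siScr 1 these differences were 1.09 for Tgfbi and 0.69 for Postn. That fit set both siErbB4 arrays against siScr 2 alone, so the difference between the numbers enters these values.

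Fn1 encodes fibronectin, the adhesive glycoprotein on which cells assemble other matrix proteins through integrins. Its processed signal was 48709 on siScr 1, 20604 on siScr 2, 45121 on siErbB4 1 and 21976 on siErbB4 2. After scaling the number 1 arrays were higher by 2.10-fold in siScr and 2.04-fold in siErbB4, so the 2 groups gave almost the same difference. Within a number the treatments could hardly be separated, with log2 differences of -0.04 at number 1 and -0.0017 at number 2. The siErbB4 minus siScr difference was -0.02 (SE 0.54, 95% interval -1.50 to 1.46).

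The thrombospondins Thbs1 and Thbs2 are close relatives that bind the receptors CD36 and CD47, and thrombospondin-1 is also known to release TGF-beta from its latent form. Thbs1 gave 31402 on siScr 1, 14841 on siScr 2, 32593 on siErbB4 1 and 17489 on siErbB4 2. The number 1 arrays were both high, after scaling 1.88-fold above the number 2 array in siScr and 1.85-fold in siErbB4. At each number the siErbB4 array was slightly the higher, by 0.12 and 0.14 on the log2 scale, and the siErbB4 minus siScr difference was 0.13 (SE 0.46, 95% interval -1.15 to 1.41).

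Thbs2 did not follow Thbs1. Its probe was dim, with a processed signal of 86.7 on siScr 1, 53.8 on siScr 2, 40.0 on siErbB4 1 and 55.9 on siErbB4 2. The highest and the lowest array were thus both number 1 arrays, and the number 2 arrays differed by a log2 difference of -0.04. Number 2 minus number 1 was -0.52 in siScr and 0.49 in siErbB4. The siErbB4 minus siScr difference was -0.54 (SE 0.28, 95% interval -1.32 to 0.23), the largest of the 10 in size, and -0.28 with normexp. Repeated spots of 1 probe within an array, a measure of the array's own error, had a median SD of 0.09 on the log2 scale at signals of 30 to 150 and of 0.04 at signals over 2000.

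The CCN proteins CYR61 and CTGF are secreted regulators of adhesion and growth, and both genes are textbook targets of YAP and TEAD. They moved differently here. Cyr61 gave 11394 on siScr 1, 4444 on siScr 2, 7353 on siErbB4 1 and 5490 on siErbB4 2. Both number 1 arrays were higher, after scaling by 2.28-fold in siScr and 1.33-fold in siErbB4. Its siErbB4 minus siScr difference was -0.56 at number 1, 0.21 at number 2 and -0.18 overall (SE 0.46, 95% interval -1.44 to 1.09). Ctgf gave 55573, 47547, 53251 and 58916 in the same order of arrays. After scaling its 4 values lay between 5.76 and 5.97 on the log2 scale, with siErbB4 2 the highest and siScr 2 the lowest. Its siErbB4 minus siScr difference was 0.11 (SE 0.14, 95% interval -0.27 to 0.49), higher in siErbB4 at both numbers, by 0.0065 and 0.21.

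Sparc encodes osteonectin, a collagen-binding protein that guides collagen assembly and is also made in quantity by endoderm and other basement membrane producers. The brighter of its 2 probes gave 187780 on siScr 1, 207737 on siScr 2, 182995 on siErbB4 1 and 180070 on siErbB4 2. The highest array was siScr 2 and the other 3 were close together, at scaled log2 levels of 7.57 to 7.60 against 7.89. The second probe was also highest on siScr 2, at 8022 against 7049 to 7810 on the others. The siErbB4 minus siScr difference was -0.14 by the brighter probe (SE 0.17, 95% interval -0.60 to 0.33) and -0.15 by the second.

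Spp1 encodes osteopontin, an integrin-binding phosphoprotein and cytokine made by macrophages, osteoblasts and injured muscle. It was dim, with a processed signal of 123 on siScr 1, 99.0 on siScr 2, 124 on siErbB4 1 and 87.6 on siErbB4 2. The number 2 arrays were the lower in both groups, by a log2 difference of -0.14 in siScr and -0.50 in siErbB4. The siErbB4 minus siScr difference was -0.09 (SE 0.22, 95% interval -0.70 to 0.52).

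**Figure D2:**
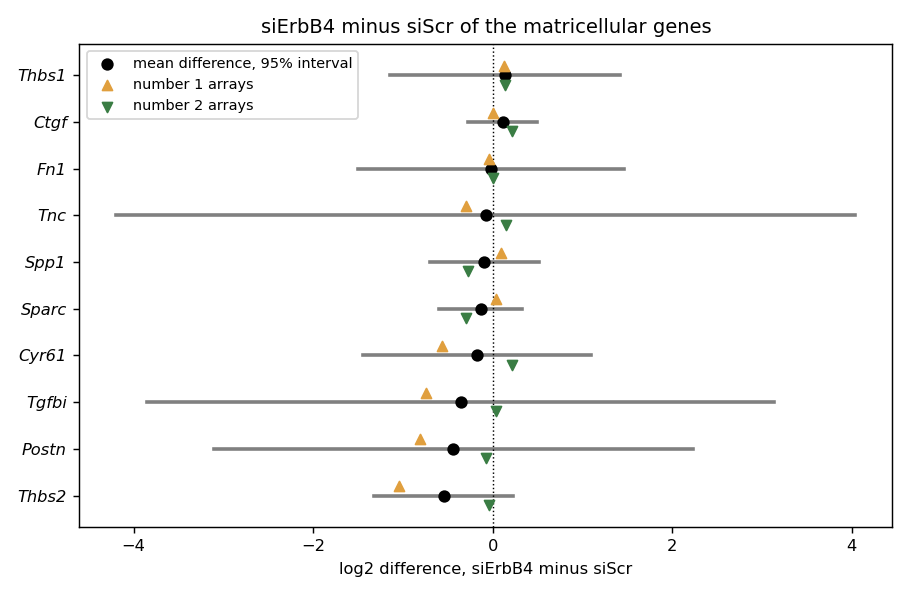
Log2 difference siErbB4 minus siScr of each gene (horizontal axis): black points are limma's mean difference over both numbers with its 95% interval as a grey bar, triangles the difference between the number 1 arrays and inverted triangles that between the number 2 arrays. Every interval includes 0, from the narrow one of Ctgf (-0.27 to 0.49) to the wide one of Tnc (-4.19 to 4.04).

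The intervals were widest for the genes with the widest differences between arrays of a group, which make up the error of this fit. With the sample number as a block the SE was smaller, at 0.16 for Tnc, 0.22 for Tgfbi, 0.21 for Postn and 0.11 for Fn1. Without the block, a change of 1 log2 unit in either direction lay outside the interval for Ctgf, Sparc and Spp1. For Thbs2 only a fall of that size lay inside it, and for the other 6 both did. The treatment differences spanned a narrower range at number 2, between -0.30 (Sparc) and 0.21 (Ctgf), than at number 1, between -1.05 (Thbs2) and 0.12 (Thbs1). The siErbB4 array was the lower for 6 of the 10 at number 1 and for 5 of the 10 at number 2. Whether the number difference itself differed between the treatments was not tested, since 4 arrays leave no error for it.

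**Figure D3:**
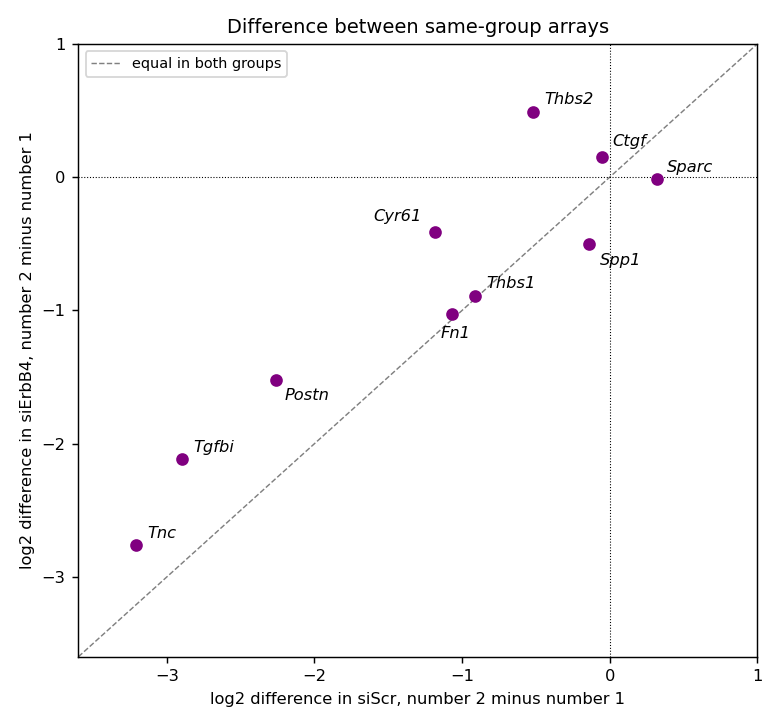
Log2 difference between the number 2 and the number 1 array within siScr (horizontal axis) and within siErbB4 (vertical axis), 1 point a gene; the dashed line marks equal differences in both groups and dotted lines mark 0. Tnc, Tgfbi and Postn lie farthest from 0 in both groups, Fn1 and Thbs1 lie on the dashed line, and Thbs2 has opposite signs, at -0.52 and 0.49.

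The size of the number difference was similar in the groups for Fn1 and Thbs1 and smaller in siErbB4 for Tnc, Tgfbi, Postn and Cyr61. It was larger in siErbB4 for Spp1, and of opposite sign in the groups for Thbs2, Sparc and Ctgf. To find genes with the same course, the median of the members' centred log2 values on the 4 arrays was taken: 0.53 on siScr 1, -0.52 on siScr 2, 0.34 on siErbB4 1 and -0.35 on siErbB4 2. Thbs1 lay nearest to it among the members (root mean square distance 0.11) and Tnc farthest (1.06). The nearest named genes outside the members, over these 4 arrays, were Tmem59l (distance 0.013), the annexin gene Anxa4 (0.029), the ephrin gene Efna5 (0.038), Cfap69 (0.040), Septin11 (0.044) and Islr2 (0.045).

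Other matricellular genes were read for comparison, from lists also written with earlier results known. The list has 29 genes, of which 20 passed the filter on dim probes, and 0 passed for siErbB4 against siScr by limma (adjusted p 1.00 for each). Smoc2, a SPARC relative, had the lowest p with a siErbB4 minus siScr difference of 0.33 (SE 0.16), followed by the bone matrix gene Mepe at -0.51 (SE 0.27). Between the numbers 12 of the 20 were lower and 4 higher on both number 2 arrays (26% and 29.4% of all features). The fibulin gene Fbln2 and the galectin gene Lgals1 had the widest differences, number 2 minus number 1, of -2.79 and -2.19 in siScr and of -2.09 and -1.51 in siErbB4. Chosen after its values were seen, the thrombospondin gene Thbs4 went the other way from Thbs1, at 1.89 in siScr and 1.64 in siErbB4.

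Receptors for these proteins, integrins, CD36, CD44, CD47, syndecans and the scavenger receptors LRP1 and stabilin-1, all passed the filter on dim probes (17 of 17), and 0 passed for siErbB4 against siScr (limma adjusted p 1.00 for each). The fibronectin receptor gene Itga5, at -0.33 (SE 0.21), and Lrp1, at -0.62 (SE 0.42), had the lowest p. Between the numbers 8 were lower and 5 higher on both number 2 arrays (26% and 29.4% of all features). Itgb3, a subunit of an integrin that binds vitronectin and osteopontin, was at -1.52 in siScr and -1.17 in siErbB4. Cd36, the thrombospondin receptor and fatty acid carrier of muscle, was at 1.40 and 1.65.

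Upstream of the members, 17 of 17 TGF-beta genes and 19 of 19 YAP, TEAD and SRF genes were tested, and 0 passed for siErbB4 against siScr (limma adjusted p 1.00 for each). The 2 lowest p of each list were those of the co-receptor gene Tgfbr3 at 0.36 (SE 0.23), the ligand gene Tgfb1 at -0.58 (SE 0.42), and of the kinase gene Lats2 at 0.17 (SE 0.14) and Yap1 at 0.16 (SE 0.14). Of the TGF-beta genes 11 were lower and 2 higher on both number 2 arrays (26% and 29.4% of all features). The co-receptor gene Eng was at -1.57 in siScr and -0.93 in siErbB4. The YAP, TEAD and SRF list had a median of -0.09 in siScr and -0.13 in siErbB4. Of its 19 genes 8 were lower and 4 higher on both number 2 arrays (26% and 29.4% of all features). Its widest differences were those of Crim1, at -0.84 and -1.26, and of the tissue factor gene F3, at 0.62 and 0.77.

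Fibre-forming matrix genes and the markers of fibroblasts and of smooth muscle were mostly lower on the number 2 arrays, as were the members. Cardiomyocyte markers were mostly higher. The median number difference of the endothelial markers was negative too, at -0.74 in siScr and -0.23 in siErbB4. That of the epicardial markers was -0.50 and -0.33. Of 14 fibre and crosslinking genes, 10 were lower on both number 2 arrays and 1 higher (26% and 29.4% of all features). Their median was -1.39 in siScr and -0.58 in siErbB4. The collagen genes Col1a1 and Col3a1 were at -2.34 and -2.23 in siScr and at -2.19 and -1.16 in siErbB4. Against siScr, 13 of the 14 were negative in siErbB4 (52.9% of all features), with a median of -0.48 and 0 called by limma. The median was -0.83 at number 1 and -0.18 at number 2. Col6a1 at -0.62 (SE 0.35) and Tgm2 at -0.23 (SE 0.16) had the lowest p.

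Of 7 fibroblast markers, Dcn, the decorin gene, was at -1.89 in siScr and -1.20 in siErbB4. Among the 5 tested, 4 were lower and 0 higher on both number 2 arrays (26% and 29.4% of all features). Their summed signal, in units of the array's 75th percentile, was 2.03 and 0.744 on siScr 1 and 2 and 1.34 and 0.761 on siErbB4 1 and 2. Dpt was not well above background on any array, and Tcf21 on 2 of the 4. Smooth muscle markers summed to 540 and 244 in siScr and to 427 and 237 in siErbB4. Acta2 and Tagln make up most of that sum. Of these 5 tested markers 3 were lower on both number 2 arrays (26% of all features). The log2 difference of Acta2 was -1.37 in siScr and -1.06 in siErbB4. The 2 that were not lower in both groups were Cnn1, at -0.40 and 0.20, and Cspg4, at -0.26 and 0.10. Myh11 was well above background on 2 arrays and too dim to test. Cardiomyocyte markers went the other way, 7 of 8 higher and 0 lower on both number 2 arrays (29.4% and 26% of all features). They summed to 695 and 828 in siScr and to 679 and 750 in siErbB4, and Tnni3 was at 1.00 and 0.93. Endothelial markers (4 of 5 tested) summed to 3.36 and 4.49 in siScr and 3.28 and 3.46 in siErbB4. Of these 4, 2 were lower and 1 higher on both number 2 arrays (26% and 29.4% of all features). Kdr makes up most of that sum, at 0.49 in siScr and 0.10 in siErbB4, while Cdh5 was at -1.88 and -1.14 and Tek at -1.37 and -0.44. The part that any of these cells had in the members' values was not tested. Spp1 is also a gene of macrophages. Markers of these cells (4 of 6 tested) summed to 7.55 and 7.99 in siScr and to 6.90 and 6.85 in siErbB4. Of these 4, 1 was lower and 1 higher on both number 2 arrays (26% and 29.4% of all features). Itgam makes up most of that sum. Among them the lysozyme gene Lyz2 had a mean number difference of 3.24, Adgre1, well above background on 3 arrays, one of -2.35, Csf1r was at 0.10 and -0.02, and Itgam at -0.09 and -0.21. Ptprc was too dim to test and Cd68 had no named probe.

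**Figure D4:**
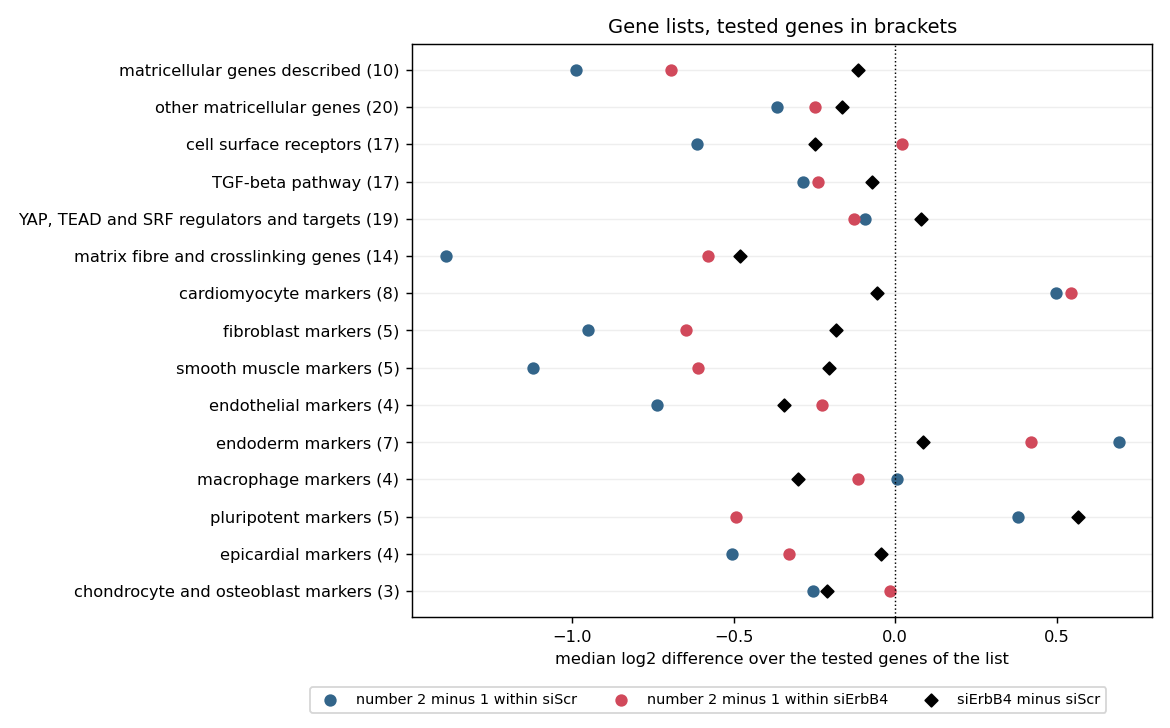
Median log2 difference over the tested genes of each list (number in brackets; horizontal axis): blue points are number 2 minus number 1 within siScr, red points the same within siErbB4, and black diamonds siErbB4 minus siScr over all 4 arrays. The matricellular genes lie on the negative side between the numbers, at -0.99 and -0.69, as do the matrix fibre, fibroblast and smooth muscle lists. The other matricellular, TGF-beta, YAP, endothelial, epicardial and chondrocyte lists also lie there in both groups. Cardiomyocyte and endoderm markers lie on the positive side.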

How the data were processed

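Scanner files of 4 Agilent 1-colour arrays were analysed. Per the file headers, the authors extracted them with Agilent Feature Extraction 10.7.1.1, and the deposited processed intensity is background-subtracted and detrended within an array, not scaled between arrays. The deposited median intensities of spot and local background and the deposited 0 or 1 flags, also of Feature Extraction, were used too. The authors' deposited log2 table equalled the values used here to within 2.4e-06 after the same scaling.

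Control spots (1377) and outlier-flagged spots (131 to 179 an array) were left out, spots of a probe averaged as log2, and the array's 75th percentile subtracted. A probe was kept where both arrays of siScr, or both of siErbB4, were well above background (25697 probes). RefSeq accessions named 27508 of 39429 probes (GRCm38.p6), the rest staying in under their own names. Of several probes of a gene the brightest was used. The comparison used limma 3.58.1 (R 4.3.3, two-sided, Benjamini-Hochberg, threshold 0.05), with 2 residual degrees of freedom. Alternatives were normexp, quantile normalization, no filter or a stricter one, the mean of probes, the deposited table, the sample number as a block and each array left out. The fit and the motif search were tested on simulated data.

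The members and lists were chosen with earlier results of these data known. Named genes are the members, the 6 nearest profiles and 2 kinds from each list that is not of markers. These are the 2 genes with the lowest p and the 2 with the widest number difference. Markers were named without this rule, and those with the lowest p for siErbB4 against siScr are not listed. Protein sequences were not used here. A gene that the rule names is not reported here. Probe levels are not compared between genes.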

Additional observations from a re-analysis of the deposited data

Results flagged for a closer look

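For 5 of the 10 genes siErbB4 lay on opposite sides of siScr at the 2 sample numbers, each from single arrays, and the difference between the numbers was not tested. The log2 difference siErbB4 minus siScr was -0.30 at number 1 and 0.15 at number 2 for Tnc, and -0.75 and 0.04 for Tgfbi. For Cyr61 it was -0.56 and 0.21. Spp1 and Sparc turned the other way, at 0.087 and -0.27 and at 0.031 and -0.30. Groups of 2 arrays are too small to look for a single array far from the others.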

How the results depend on the processing

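No alternative called a feature for siErbB4 against siScr by limma (183 to 1568 features had an unadjusted p under 0.05). The members' median number difference stayed between -0.95 and -0.74 with arrays left out. The count of features called between the numbers, 1079, was 1886 with normexp, 0 with no filter on dim probes (4678 at an unadjusted limma p under 0.05) and 0 to 1552 with arrays left out. The cause of these shifts was not tested. Quantile normalization turned Fn1 to 0.013 (siErbB4 minus siScr). With each array left out in turn, siErbB4 minus siScr ranged from -1.68 to 1.53 for Tnc, -1.80 to 1.09 for Tgfbi, -1.57 to 0.69 for Postn, -0.56 to 0.51 for Fn1, -0.77 to 0.42 for Cyr61, -0.32 to 0.59 for Thbs1, -0.34 to 0.16 for Spp1 and -0.29 to 0.024 for Sparc. Thbs2 (-0.80 to -0.29) and Ctgf (0.03 to 0.19) kept their sign. The members' median ranged from -0.66 to 0.46. Each such fit, without the block, leaves the sample numbers uneven between the groups, so the difference between the numbers enters these ranges.

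Deviations of same-numbered arrays correlated at 0.678 across features, and with 2 pairs this does not show that the numbers pair the samples. With the sample number as a replicate block, 1568 features and 0 members had an unadjusted limma p under 0.05 and 0 features were called. The block thus changed no call, but the SE of each member was smaller with it, 0.16 against 1.49 for Tnc. The 2 arrays a group and dim signals for Tnc, Thbs2 and Spp1 limit the precision.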

Other observations

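Among cells not described above, markers of early endoderm were mixed between the sample numbers. Of 7 tested, 4 were higher and 2 lower on both number 2 arrays (29.4% and 26% of all features). Sox17 was at 1.55 in siScr and 1.17 in siErbB4, and the transthyretin gene Ttr at 0.80 and 1.14. The 2 lower were Dab2, at -0.80 and -0.61, and Sox7, well above background on 3 arrays, at -0.91 and -0.14. The 5 stem cell markers had a median number difference of 0.38 in siScr and -0.49 in siErbB4, with Pou5f1 at 0.61 and -1.46, Nanog positive in both groups at 0.25 and 0.21, and Dppa5a at 0.0017 and -0.44. Sox9, a transcription factor of cartilage and valve precursors, was at -2.15 in siScr and -1.96 in siErbB4, while the cartilage matrix gene Acan was at 0.09 and -0.02. Of 4 epicardial genes 2 were lower and 1 higher on both number 2 arrays (26% and 29.4% of all features). Upk3b, well above background on 3 arrays, was at -2.28 and -1.41. Tbx18 was at -0.79 and -0.62, Aldh1a2 at -0.22 and -0.03 and Wt1 at 0.37 and 0.81.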
